A study of Mus musculus with 9 samples.

Results

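Adipose stromal cells taken from the mammary fat pads of mice at day 3 of involution (ASC-Is) were compared with those of nulliparous mice (ASC-Ns). The comparison rests on 6 of the 9 arrays of the series, 3 for each of these stages. It covers the 21762 probe sets annotated to exactly 1 gene symbol among the 28348 with deposited values. These 21762 stand for 19930 genes. All mice were female Balb/c. The nulliparous mice were 8 weeks old and were kept away from males. The involuting mice had been bred and had nursed, and their glands were taken 3 days after weaning. The paper states that mating took place at 8 weeks of age, so these mice were older than the nulliparous ones. Age thus differed together with stage, and its part in the changes was not tested. The remaining 3 arrays hold cells from mice at day 5 of lactation (ASC-Ls), which enter the fit and are given beside the main comparison. Arrays are named by stage and replicate number, from ASC-N1 to ASC-I3. The stroma was freed by collagenase and hyaluronidase and separated by centrifugation, and the study describes RNA from low passage cultures, so that the RNA is from cells that had left the gland. The labels number the 3 arrays of each stage as biological replicates. Which animals stand behind each array, and whether they were pooled, is not given in the sources used here, so the spread behind the p-values is that between 3 preparations of a stage.

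When milk removal stops, the secretory epithelium of the mammary gland dies and is cleared, partly by phagocytes, and the fat pad fills with lipid-laden adipocytes again. Adipose stromal cells as prepared in the study were a mixture, since both the adipocytes that float and the stromal-vascular cells of the digest were plated. Such cultures can hold preadipocytes and their progenitors, mature adipocytes, fibroblasts and perivascular cells, together with leukocytes and vessel cells that come along. Preadipocytes become adipocytes under the nuclear receptor Pparg and the C/EBP factors, while macrophages of the tissue take up dead cells and secrete cytokines.

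Each value is a log2 signal of a probe set, so that a difference of 1 is a doubling on the linear scale. Array medians over the tested probe sets lay between 6.26 and 6.33. Correlations between arrays of a stage, across probe sets, ran from 0.973 to 0.991 for ASC-Ns and from 0.974 to 0.986 for ASC-Is. The table holds no detection calls, so the absence of a transcript was not read from a low signal. In regard to the label, markers of stromal cells were measured in every array. The log2 signal of Pdgfrb, a receptor of pericytes and fibroblasts, was between 10.59 and 11.33 in the 6 arrays. Itgb1, the integrin chain also known as CD29, which the paper used as a mesenchymal stem cell marker, lay between 12.15 and 12.36. The signals of Pdgfrb and Itgb1 alone do not establish that the cells were stromal. Markers of other cells were not even between arrays. The mean log2 signal of 28 macrophage genes was 7.40, 7.33 and 5.84 in ASC-N1 to ASC-N3, against 7.89, 6.75 and 7.06 in ASC-I1 to ASC-I3. For 13 basal epithelial genes it was 6.21, 6.10 and 5.42 in ASC-Ns and 5.55, 7.17 and 5.57 in ASC-Is. ASC-N3 was thus the lowest of these 6 arrays in macrophage genes, and ASC-I2 stood above all other ASC-N and ASC-I arrays in basal genes.

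Few probe sets passed the limits used here, and none passed an adjusted p of 0.05. A probe set was called where the unadjusted p of the limma fit was under 0.05 and the change at least 1.5-fold, and "rose" and "fell" are kept for these. Since no adjusted p passed, the calls rank genes by size and spread and are given with the SE of each change. Called were 59 of 21762 probe sets (0.271%), of which 16 were higher in ASC-Is (0.0735%) and 43 lower (0.198%). They stand for 53 genes (0.266%), 15 higher (0.0753%) and 38 lower (0.191%). No probe set passed an adjusted p of 0.05 in limma (0.0%), where the smallest adjusted p was 0.9999. An unadjusted p under 0.05 was seen in 333 (1.53%), fewer than evenly spread p-values would give. A change of at least 1.5-fold at any p was seen in 251 probe sets (1.15%). The arrays of the stages did not overlap in 12 of the 16 probe sets that rose and in 30 of the 43 that fell, against 6.53% of all probe sets (3.92% higher and 2.61% lower). The calls were made on these same arrays and favor a gap between the stages, so these counts are no test. The median change over all probe sets was 0.00. The count depended on the arrays: 38 probe sets were called without ASC-N1, 243 without ASC-N3, 98 without ASC-I2 and 110 without ASC-I3.

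Genes of activated myeloid cells were among those that rose. They were Clec4d, a C-type lectin receptor of myeloid cells, Il1b, the cytokine interleukin-1 beta, Acod1, whose product forms itaconate when macrophages are activated, and Ifitm6, a member of the interferon-induced transmembrane proteins. Atp6v0d2, a proton pump subunit best known from osteoclasts, rose as well. The promoters of the first 4 are shown, because these genes share a myeloid or interferon role and were all called higher, so that the windows can be set beside the values. Their arrays did not follow one order: ASC-N3 was the lowest ASC-N array for Clec4d, Il1b and Ifitm6 but the highest for Acod1, and ASC-I2 the lowest ASC-I array for Clec4d, Ifitm6 and Acod1 but the highest for Il1b. Each sequence holds the 250 bases before a RefSeq transcription start (GRCm38.p6), 5′ to 3′ on the strand of the gene, at chr6:123261857-123262106 for Clec4d (plus strand), chr2:129371140-129371389 for Il1b (minus strand), chr14:103046762-103047011 for Acod1 (plus strand) and chr7:141016893-141017142 for Ifitm6 (minus strand). Capitals mark GAGGAA, the core of the site bound by the myeloid factor PU.1, on either strand, and TATAAA, the TATA box.
Clec4d: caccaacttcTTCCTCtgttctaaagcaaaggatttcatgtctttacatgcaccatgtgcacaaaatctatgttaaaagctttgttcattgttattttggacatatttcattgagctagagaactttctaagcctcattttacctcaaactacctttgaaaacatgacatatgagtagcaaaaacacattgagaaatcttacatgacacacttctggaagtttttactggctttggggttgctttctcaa
Il1b: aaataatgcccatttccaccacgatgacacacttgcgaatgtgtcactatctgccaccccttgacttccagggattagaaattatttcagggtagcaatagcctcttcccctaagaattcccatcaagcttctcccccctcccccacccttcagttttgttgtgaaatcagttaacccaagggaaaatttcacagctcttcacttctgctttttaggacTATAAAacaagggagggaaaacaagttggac
Acod1: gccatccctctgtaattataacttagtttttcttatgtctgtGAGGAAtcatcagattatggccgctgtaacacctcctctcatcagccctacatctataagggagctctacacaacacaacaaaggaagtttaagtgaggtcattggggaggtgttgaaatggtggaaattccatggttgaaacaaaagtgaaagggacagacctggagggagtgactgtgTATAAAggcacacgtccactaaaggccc
Ifitm6: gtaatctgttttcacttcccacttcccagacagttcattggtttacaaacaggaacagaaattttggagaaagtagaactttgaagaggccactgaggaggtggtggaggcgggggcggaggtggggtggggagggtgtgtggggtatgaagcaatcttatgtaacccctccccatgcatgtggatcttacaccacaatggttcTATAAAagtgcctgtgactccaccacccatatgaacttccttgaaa

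In Clec4d, GAGGAA stood 240 bases before the start on the opposite strand, and again at bases 8 and 40 after the start, beyond the stretch shown. In Acod1 it lay 208 bases before the start. TATAAA began 31, 28 and 46 bases before the start of Il1b, Acod1 and Ifitm6. Both strands of windows of 300 bases (250 before and 50 after the start) were searched for each motif, whose letters cannot overlap on the same strand in these windows. GAGGAA was found in 6 of 12 windows of the genes that rose and in 9 of 31 windows of those that fell, against 28.3% of all 32851 windows. TATAAA was found in 3 of 12 and 6 of 31, against 13.6% of all. Windows were given for 35 of the 53 genes, and these matches describe letters only.

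Clec4d had log2 signals of 7.58, 6.97 and 5.75 in ASC-N1 to ASC-N3 and of 9.20, 7.18 and 8.35 in ASC-I1 to ASC-I3. Its rise was 1.48 ± 0.57 (log2, SE; limma), and ASC-I2 lay below the highest ASC-N array. Il1b read 6.54, 6.24 and 5.21 in ASC-Ns against 6.996, 7.58 and 7.09 in ASC-Is, which do not overlap, a rise of 1.23 ± 0.49. Ifitm6 read 5.62, 5.44 and 5.19 against 6.93, 5.69 and 6.60, and rose by 0.99 ± 0.36, with ASC-I2 just above the ASC-N arrays. In Acod1 the signals were 5.06, 5.06 and 5.49 in ASC-Ns and 5.93, 5.82 and 6.67 in ASC-Is, a rise of 0.94 ± 0.40 without overlap. Atp6v0d2 read 5.95, 5.67 and 4.42 against 6.12, 7.03 and 6.32 and rose by 1.14 ± 0.48. The low value of ASC-N3 in Clec4d, Il1b and Atp6v0d2 comes from the array that was the lowest of these 6 in macrophage genes. Without it the changes were 0.97, 0.83 and 0.68, and all 3 calls were lost. Those of Clec4d, Il1b and Ifitm6 were also lost without ASC-I3 (1.42, 1.29 and 0.89). The call of Ifitm6 was lost without ASC-N3 (0.87) or ASC-I1 (0.73), that of Clec4d without ASC-I1 (1.00), and that of Il1b without ASC-I2 (1.05). Atp6v0d2 was not called without ASC-L3 (1.14), ASC-I2 (0.87) or ASC-I3 (1.23), and Acod1 not without ASC-N1, ASC-N2, ASC-L2, ASC-I1 or ASC-I3 (0.68 to 1.05).

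The markers of macrophages themselves did not pass the limits. Of the 28 macrophage and monocyte genes, all measured, 23 were higher in ASC-Is and 5 lower, with 0 called and a median change of 0.38. The largest changes were those of Cybb, the phagocyte oxidase subunit (1.15 ± 0.70), and Ms4a7 (1.03 ± 0.52). Adgre1, which encodes F4/80, read 6.86, 6.78 and 5.72 in ASC-Ns and 7.45, 5.63 and 8.02 in ASC-Is, a change of 0.58 ± 0.55. The median of the list was -0.05 without ASC-N3, with 12 genes higher and 16 lower, and 0.06 without ASC-I1. In cells measured in bulk, fewer cells of a type and less RNA per cell cannot be told apart. The part of these marker levels in the rises of Clec4d, Il1b, Acod1, Ifitm6 and Atp6v0d2 was not tested.

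Other lists of myeloid genes held few called members, where 0.0753% of all genes were called higher. The lists were drawn up with earlier results known, so nothing is read from their counts of calls. Among 15 measured genes of classical macrophage activation, 10 were higher, Il1b and Acod1 rose, and the median change was 0.34 (0.21 without ASC-I1). Il6, an inflammatory cytokine that stromal cells also make, read 9.08, 7.92 and 11.05 in ASC-Ns and 9.81, 10.76 and 11.21 in ASC-Is (1.25 ± 0.81), where the ASC-N arrays spread over a wider range than the stages differed. Of 19 myeloid inhibitory and lectin receptors 14 were higher with a median of 0.20, and only Clec4d rose. Without ASC-N3 the median of these receptors was -0.07, with 7 higher and 12 lower, and without ASC-I1 it was -0.09, with 9 and 10. Of 14 genes of lipid-handling and bone-resorbing phagocytes 11 were higher with a median of 0.32, and only Atp6v0d2 rose. That median was 0.12 without ASC-N3, 0.09 without ASC-I1 and 0.17 without ASC-I2. Among 20 lysosomal protease and proton pump genes 8 were higher and 12 lower with 0 called, and without ASC-N3 17 were higher. Alternative macrophage activation had 5 of 11 genes higher, and Arg1, the arginase of such macrophages, changed by 0.76 ± 0.75. Il7r, the interleukin-7 receptor chain of lymphocytes, rose by 1.02 ± 0.43 with ASC-N signals of 5.80, 5.39 and 4.35 and ASC-I signals of 6.25, 6.68 and 5.68, which overlap. It was the only called gene of 15 T and NK cell genes, whose median change was 0.02, and its call was lost without ASC-N2 (1.13), ASC-N3 (0.61), ASC-I1 (1.00) or ASC-I2 (0.78).

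The largest difference of all probe sets belonged to one annotated to Kcnma1, a potassium channel gene. Its log2 signal was 4.21, 4.21 and 8.03 in ASC-Ns, 4.39, 4.91 and 5.62 in ASC-Ls and 12.34, 8.66 and 11.37 in ASC-Is. It rose by 5.31 ± 1.15, and the ASC-I arrays lay above all other arrays. A table of the study gives this probe set the name Mela, a melanoma antigen derived from an endogenous retrovirus. The other probe set annotated to Kcnma1 changed by -0.13, so the rise is given for the probe set and not for the channel gene. ASC-N3 was the highest of the 6 ASC-N and ASC-L arrays, and ASC-I2 the lowest of the ASC-I arrays. The call held with any array left out.

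The angiogenic factor that rose was Pgf, placental growth factor, a ligand of the receptor Flt1. It read 6.82, 6.72 and 6.57 in ASC-Ns, close together, and 7.49, 9.41 and 7.27 in ASC-Is, a rise of 1.35 ± 0.58. Most of it lay in ASC-I2, without which the change was 0.68 and not called. The call was also lost without ASC-N1, ASC-N2, ASC-N3 or ASC-L1 (1.29 to 1.41). Among 19 angiogenic factors 12 were higher, with a median of 0.13 (0.02 without ASC-N2 or ASC-I2). Vegfa changed by 0.22 ± 0.20, Vegfc by 0.27 ± 0.40, Vegfd by -0.13 ± 1.05 and Pdgfc by 0.27 ± 0.61.

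Genes of oxygen sensing, stress and RNA binding rose as well. Egln3, an oxygen-sensing prolyl hydroxylase that is induced in hypoxia, read 8.16, 7.66 and 8.43 in ASC-Ns and 8.79, 8.60 and 9.05 in ASC-Is, a rise of 0.73 ± 0.29. It was the only called member of 13 genes of hypoxia and glycolysis, of which 11 were higher with a median of 0.19. Without ASC-N2 that median was 0.01 and without ASC-I3 0.05, each with 7 genes higher and 6 lower. Ier3, an immediate early gene, read 9.001, 8.90 and 9.68 against 9.72, 9.88 and 10.01 and rose by 0.68 ± 0.23, while 7 of 14 immediate early genes were higher with a median of 0.01. Igf2bp1, an RNA-binding protein of fetal tissues, read 5.47, 5.86 and 5.71 against 6.46, 6.30 and 6.21 in 1 of its probe sets and rose by 0.65 ± 0.15, but by only 0.36 when its 2 probe sets were averaged, which was not called. The receptor phosphatase Ptprj rose by 0.61 ± 0.25 and 0.59 ± 0.24 in its 2 probe sets. Of all probe sets, 3.92% were higher in ASC-Is without overlap. The called probe sets of these 4 genes did not overlap either, but this was a condition for naming them. Each lost its call without some arrays: Egln3 without ASC-N1 or ASC-N2 or ASC-I1 or ASC-I3 (0.51 to 0.77), Ier3 without ASC-N1 or ASC-N2 or ASC-I3 (0.53 to 0.61), Igf2bp1 without ASC-N1 or ASC-I1 (0.54 and 0.58), and Ptprj without ASC-N2 or ASC-N3 or ASC-I1 or ASC-I2 (0.52 to 0.60). Dppa5a, a gene of pluripotent cells, rose by 0.60, and was not called without any array but ASC-N3 and ASC-I3 (0.39 to 0.61). Mup5 (1.07) and Cstdc6 (0.65) may have similar gene copies whose transcripts the probes share. This was not checked by alignment, so these rises are uncertain. Mup5 had low signals, 3.06, 2.78 and 2.84 in ASC-Ns and 3.69, 3.05 and 5.15 in ASC-Is, which overlap. Without ASC-I3 its change was 0.48 and not called. The call of Mup5 was also lost without ASC-N1, ASC-N2, ASC-N3, ASC-L3 or ASC-I1 (1.01 to 1.20), and that of Cstdc6 without ASC-N2 or ASC-I1 (0.57 and 0.50).

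**Figure D1:**
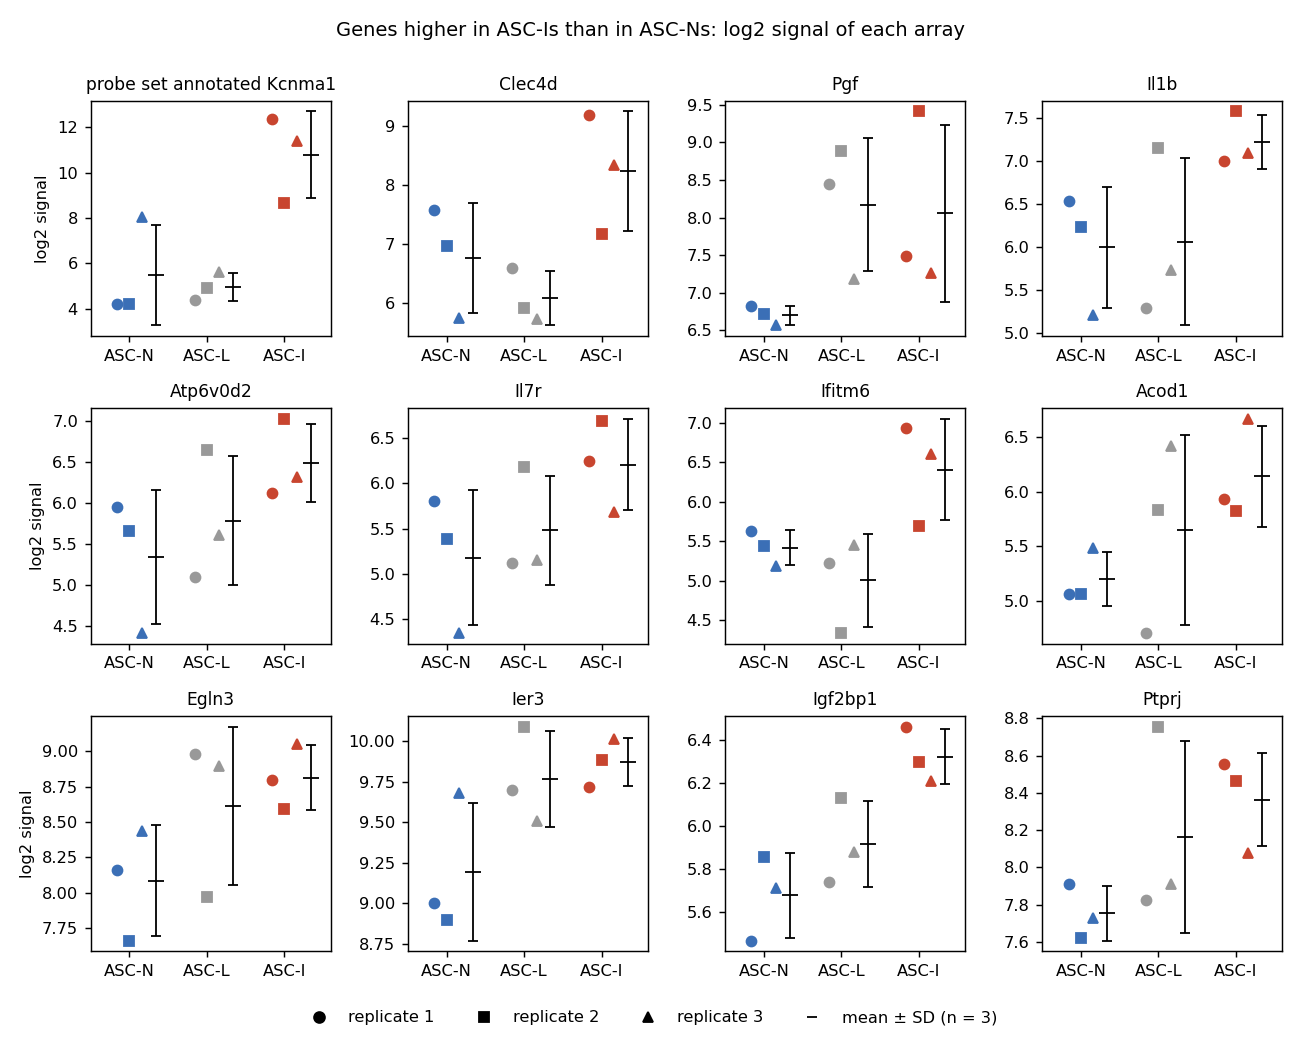
Log2 signal (y axis) of 12 probe sets that rose in ASC-Is against ASC-Ns, by stage (x axis), with a point for each array (circle, square and triangle for replicates 1, 2 and 3) and bars for the mean ± SD of 3 arrays. The probe set annotated to Kcnma1 spans 4.21 to 12.34, whereas Ier3, Igf2bp1 and Ptprj differ by less than 1, and in Clec4d and Il7r the ASC-N and ASC-I arrays overlap.

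Pparg, the nuclear receptor that drives fat cell differentiation, was lower in ASC-Is in all array pairs. It read 7.61, 8.26 and 7.83 in ASC-Ns and 7.03, 6.74 and 7.42 in ASC-Is, a fall of 0.83 ± 0.24 on the log2 scale. Its call held with any array left out. Of 25 transcription factors of adipogenesis 20 were lower and 5 higher, with a median of -0.12, and only Pparg fell. Cebpa, its partner, changed by -0.35 and Cebpd, which acts early in differentiation, by 0.37, neither called. Klf2, an inhibitor of differentiation, read 8.22, 8.46 and 8.55 against 8.28, 7.99 and 8.37 (-0.20 ± 0.22). Of 18 measured genes of mature fat cells, 8 were higher and 10 lower with 0 called. Their mean log2 signal was 5.81 in ASC-Ns and in ASC-Is, under the lowest array median of 6.26. A fall in the dim genes of this list could thus be missed, so whether they followed Pparg is not decided. Fabp4, the fatty acid carrier, changed by -0.21 ± 0.21, Lpl, lipoprotein lipase, by -0.48 ± 0.58, and Lipe, hormone-sensitive lipase, by -0.06 ± 0.14. Slc2a4, the insulin-dependent glucose transporter, read 5.75, 5.59 and 5.62 in ASC-Ns and 6.13, 6.19 and 5.86 in ASC-Is, which do not overlap, but its change of 0.41 ± 0.13 was under 1.5-fold.

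Among 20 genes of adipose progenitors and fibroblasts 15 were lower and 5 higher, with a median of -0.16, and 2 fell. Of all genes 0.191% were called lower, but the list was drawn up with earlier results known, so nothing is read from this count. Meox2, a homeobox factor of mesoderm, read 7.40, 5.82 and 6.18 in ASC-Ns and 5.65, 5.75 and 5.28 in ASC-Is, a fall of 0.90 ± 0.35. ASC-N1 carried much of it, and without that array the change was -0.44 and not called. Mgp, matrix Gla protein, an inhibitor of calcification, read 8.65, 8.24 and 8.81 against 7.15, 7.16 and 8.30 and fell by 1.03 ± 0.42, with ASC-I3 inside the ASC-N range. Meox2 was also not called without ASC-I1 or ASC-I3 (-0.95 and -0.77), and Mgp not without ASC-N1 or ASC-N3 or ASC-I1 or ASC-I2 (-0.99 to -0.84). Dlk1, the preadipocyte factor, changed by -0.13 ± 0.14, Cd34 by -0.55 ± 0.65 and Itgb1 by 0.07 ± 0.11.

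Genes of the matrix and its turnover were among those that fell. Tnmd, tenomodulin of tendon and adipose tissue, read 6.98, 6.30 and 5.65 in ASC-Ns and 5.73, 4.94 and 5.17 in ASC-Is, a fall of 1.03 ± 0.35 with ASC-N3 just under the highest ASC-I array. The matrix glycoprotein Sned1 read 8.12, 7.60 and 7.26 against 7.12, 6.23 and 7.04, without overlap, and fell by 0.87 ± 0.28. Megf10, which was listed with the matrix genes but is a membrane receptor for the engulfment of dying cells and a regulator of muscle precursors, read 7.25, 7.68 and 6.91 against 5.93, 6.90 and 6.25 and fell by 0.92 ± 0.34. These were 3 of 37 genes of matrix glycoproteins and proteoglycans, of which 18 were higher and 19 lower with a median of -0.01. This list too was drawn up with earlier results known, so its count is not read against the 0.191% of all genes called lower. Adam12, a membrane-bound metalloprotease of mesenchymal cells, read 9.71, 10.08 and 9.43 against 8.76, 9.23 and 8.98, without overlap, and fell by 0.75 ± 0.19. It was the only called gene of 29 matrix proteases and inhibitors, and Mmp9 read 7.84, 6.68 and 6.42 against 7.32, 8.68 and 8.00 (1.02 ± 1.04). Srpx2, a secreted sushi-repeat protein, fell by 0.74 ± 0.32, and Frem1, a basement membrane protein, by 0.60 ± 0.22. None of the 21 collagen genes was called, 13 higher and 8 lower, and Col6a1 changed by -0.67 ± 0.63. Without ASC-N1 the calls of Tnmd (-0.69), Sned1 (-0.64), Megf10 (-0.94), Srpx2 (-0.62) and Frem1 (-0.45) were lost, and without ASC-N2 that of Adam12 (-0.58). Tnmd was also not called without ASC-I2 (-0.86), Megf10 not without ASC-N2 or ASC-I1 or ASC-I3 (-0.87 to -0.71), Srpx2 not without ASC-N3, ASC-L2 or ASC-I1 (-0.74 to -0.39), and Frem1 not without ASC-I1 or ASC-I2 (-0.59 and -0.56).

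Il1rl2, the receptor of the interleukin-36 cytokines, read 9.56, 9.73 and 9.33 in ASC-Ns and 8.41, 8.32 and 9.26 in ASC-Is, a fall of 0.87 ± 0.35. Of 29 cytokine and chemokine receptors and related ligands 19 were higher, and only Il1rl2 was called. Smad6, an inhibitor of BMP signaling, read 7.64, 7.80 and 7.46 against 7.02, 6.29 and 7.43 and fell by 0.72 ± 0.29, while 9 of 20 genes of TGF-beta and BMP signaling were higher with a median of -0.01. In both genes ASC-I3 lay just under the lowest ASC-N array. Trabd2b, a membrane metalloprotease that inactivates Wnt ligands, read 7.16, 7.43 and 7.02 against 6.56, 6.14 and 6.43 and fell by 0.83 ± 0.22 and by 0.72 ± 0.23 in its 2 probe sets, and its call held with any array left out. Wnt signaling as a list had 11 genes higher and 11 lower with 0 called, although Sfrp2, a secreted Wnt inhibitor, read 10.74, 7.65 and 6.25 in ASC-Ns and 5.47, 6.83 and 7.23 in ASC-Is (-1.70 ± 0.99). Sp7, the osteoblast factor osterix, fell by 0.62 ± 0.27 and pleiotrophin, Ptn, a heparin-binding growth factor, by 0.80 ± 0.35. Leaving out single arrays ended the calls of Il1rl2 and Smad6 (ASC-N1 or ASC-N2 and ASC-I1 or ASC-I2, -0.87 to -0.41), of Sp7 (ASC-N1, ASC-L1 or ASC-L3 and ASC-I1 or ASC-I2, -0.65 to -0.30) and of Ptn (each of the 8 arrays other than ASC-N3, -0.85 to -0.38).

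Ggt5, the transferase that cleaves glutathione conjugates such as leukotriene C4, had the largest fall of the tested probe sets that were called, with 7.65, 7.56 and 6.03 in ASC-Ns and 5.89, 5.37 and 6.43 in ASC-Is (-1.18 ± 0.46). ASC-N3 was inside the ASC-I range, and the call was lost without ASC-N1 or ASC-N2 or ASC-I1 or ASC-I2 (-1.18 to -0.89). Of 13 genes of glutathione and small-molecule metabolism 11 were lower, with a median of -0.20. Slc16a12, a monocarboxylate transporter family member that carries creatine and was listed with the genes of fatty acid synthesis, fell by 0.99 ± 0.42. No enzyme of that list was called. Slc16a12 lost its call without any array but ASC-N3 and ASC-L3 (-1.09 to -0.66). The sulfatase Arsi read 6.43, 6.04 and 6.38 against 5.77, 4.97 and 5.55, without overlap, and fell by 0.85 ± 0.27, and its call held with any array left out. Slc1a3, a glutamate transporter, fell by 0.72 ± 0.23 and Abca8a, an ABC transporter, by 0.68 ± 0.26. Both were not called without ASC-N1 (-0.43 and -0.34) or ASC-I2 (-0.59 and -0.66), nor was Abca8a without ASC-I1 (-0.66).

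Further falls were smaller or are less well known in stroma. Not all of the 38 genes that fell are named, and some left out fell by more than some that are named. Itm2a, an integral membrane protein of differentiating mesenchyme, fell by 1.03 ± 0.42, from 10.12, 9.28 and 8.59 to 7.57, 8.83 and 8.49, where the stages overlap, and was not called without ASC-N1 or ASC-N2 or ASC-I1 (-1.06 to -0.64). Jakmip2 read 5.11, 5.15 and 4.58 against 4.13, 4.03 and 4.37 and fell by 0.77 ± 0.23, a call that held with any array left out. Vstm4 fell by 0.81, Myl1, a muscle myosin light chain, by 0.76, Dnah7b, an axonemal dynein chain, by 0.73, Frmd3 by 0.66, Plce1, a phospholipase C, by 0.61 and Tmem100 by 0.59. All 6 lost their call without at least 1 array or, for Dnah7b, when its 2 probe sets were averaged (-0.22). The 5 probe sets of Gm24463, a small RNA gene of which 3 rows of values are distinct, fell by between 0.91 and 0.99. Gm24463, Tuba3b (-0.60) and Pcdhb9 (-0.60) may have similar copies or relatives whose transcripts the probes share. This too was not checked by alignment, so these falls are uncertain. Tuba3b was not called without ASC-N1, ASC-N3, ASC-I1 or ASC-I3 (-0.60 to -0.40), and Pcdhb9 not without ASC-N1, ASC-N2, ASC-L2, ASC-I1 or ASC-I3 (-0.65 to -0.35). ASC-N3 was the ASC-N array nearest to the ASC-I mean in 22 of the 38 genes that fell, and in 8 of them it lay at or under the highest ASC-I array.

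**Figure D2:**
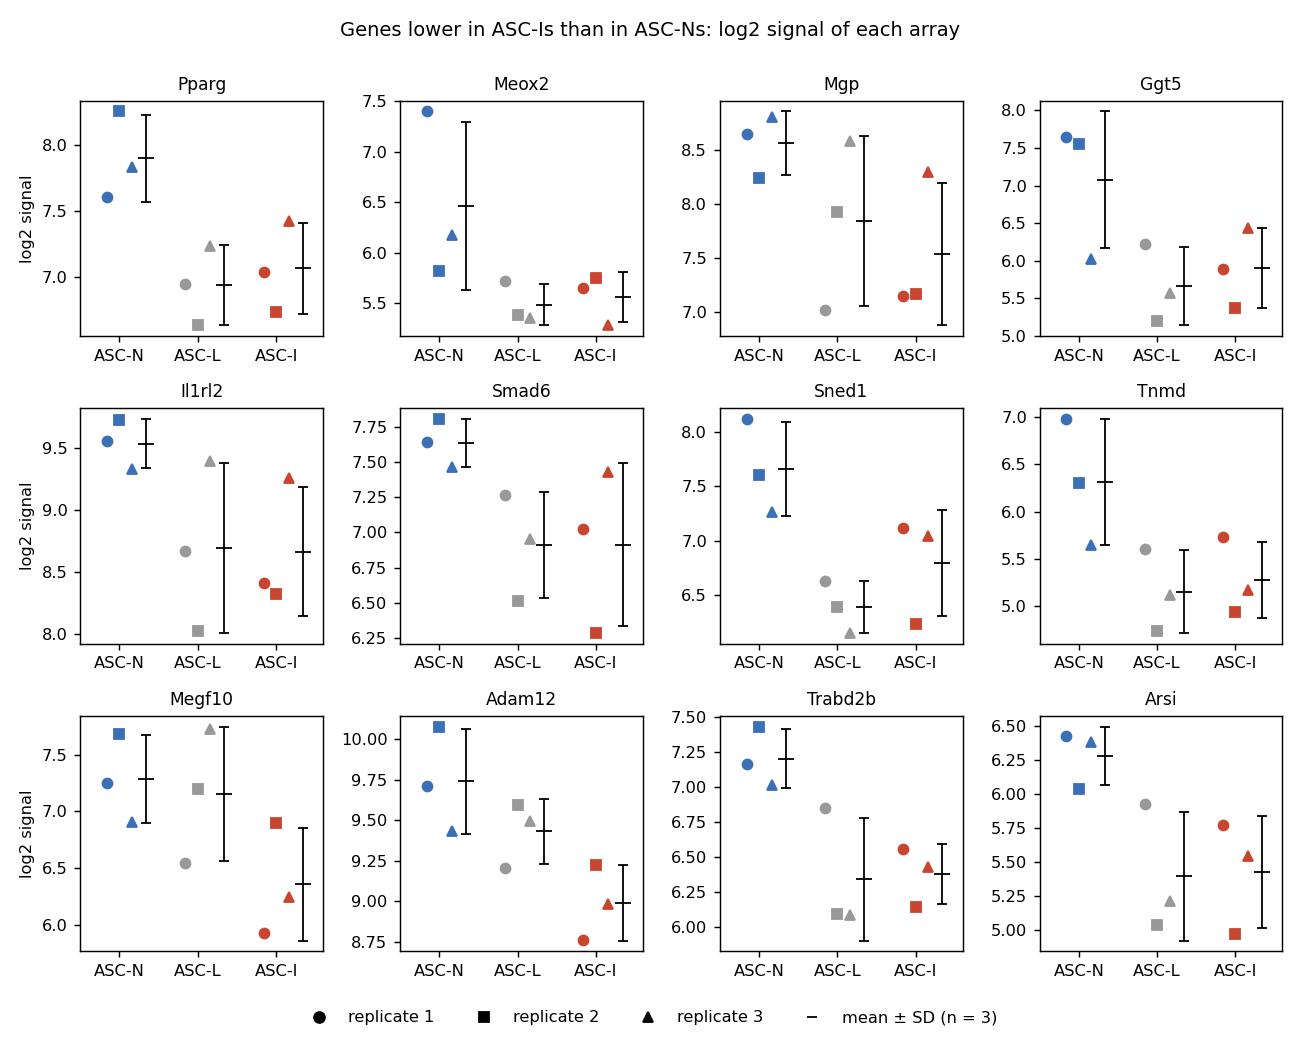
Log2 signal (y axis) of 12 genes that fell in ASC-Is against ASC-Ns, by stage (x axis), with a point for each array (circle, square and triangle for replicates 1, 2 and 3) and bars for the mean ± SD of 3 arrays. The ASC-I arrays lie under all ASC-N arrays in Pparg, Adam12, Trabd2b and Arsi, and overlap them in Mgp, Ggt5 and Tnmd. ASC-Ls are near ASC-Is in most panels, but in Megf10 and Adam12 their mean is nearer to that of ASC-Ns.

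To see what set involution apart from lactation, the ASC-L values were read beside these changes. Both differences share the ASC-N arrays, so only the direct contrast of ASC-Is with ASC-Ls tests whether they differ. Pgf changed by 1.35 in ASC-Is and by 1.47 in ASC-Ls against ASC-Ns, Clec4d by 1.48 and -0.68, Pparg by -0.83 and -0.96, and Megf10 by -0.92 and -0.13. All 38 genes that fell also had a negative change in ASC-Ls, and 17 of them were called there. Ggt5 changed by -1.41 in ASC-Ls, Sned1 by -1.28 and Tnmd by -1.15, each more than in ASC-Is. The change was larger in ASC-Is for 26 of the 38. Of the 15 genes that rose, 12 kept their sign in ASC-Ls and 1 was called. With the ASC-N arrays shared, these counts are no test. Over all probe sets 0.62% were called between ASC-Ls and ASC-Ns and 0.455% between ASC-Is and ASC-Ls. The genes were chosen on the same ASC-I arrays, so a count of them in the direct contrast is no test and is not read against these shares. It called 4 of the 15 genes that rose: Clec4d (2.16 ± 0.57), Il1b (1.16 ± 0.49), Ifitm6 (1.40 ± 0.36) and the probe set annotated to Kcnma1 (5.82 ± 1.15). In Clec4d the ASC-L arrays read 6.60, 5.93 and 5.73 and in Ifitm6 5.22, 4.34 and 5.45, below all ASC-I arrays. Macrophage genes had a median change of -0.69 in ASC-Ls against ASC-Ns, and their part in these contrasts was not tested. Of the 38 genes that fell, 1 was called, Megf10, which read 6.55, 7.20 and 7.72 in ASC-Ls (-0.80 ± 0.34). Pparg read 6.95, 6.63 and 7.23 in ASC-Ls, a difference between ASC-Is and ASC-Ls of 0.13 ± 0.24. No adjusted p of these contrasts passed 0.05 for the genes named.

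**Figure D3:**
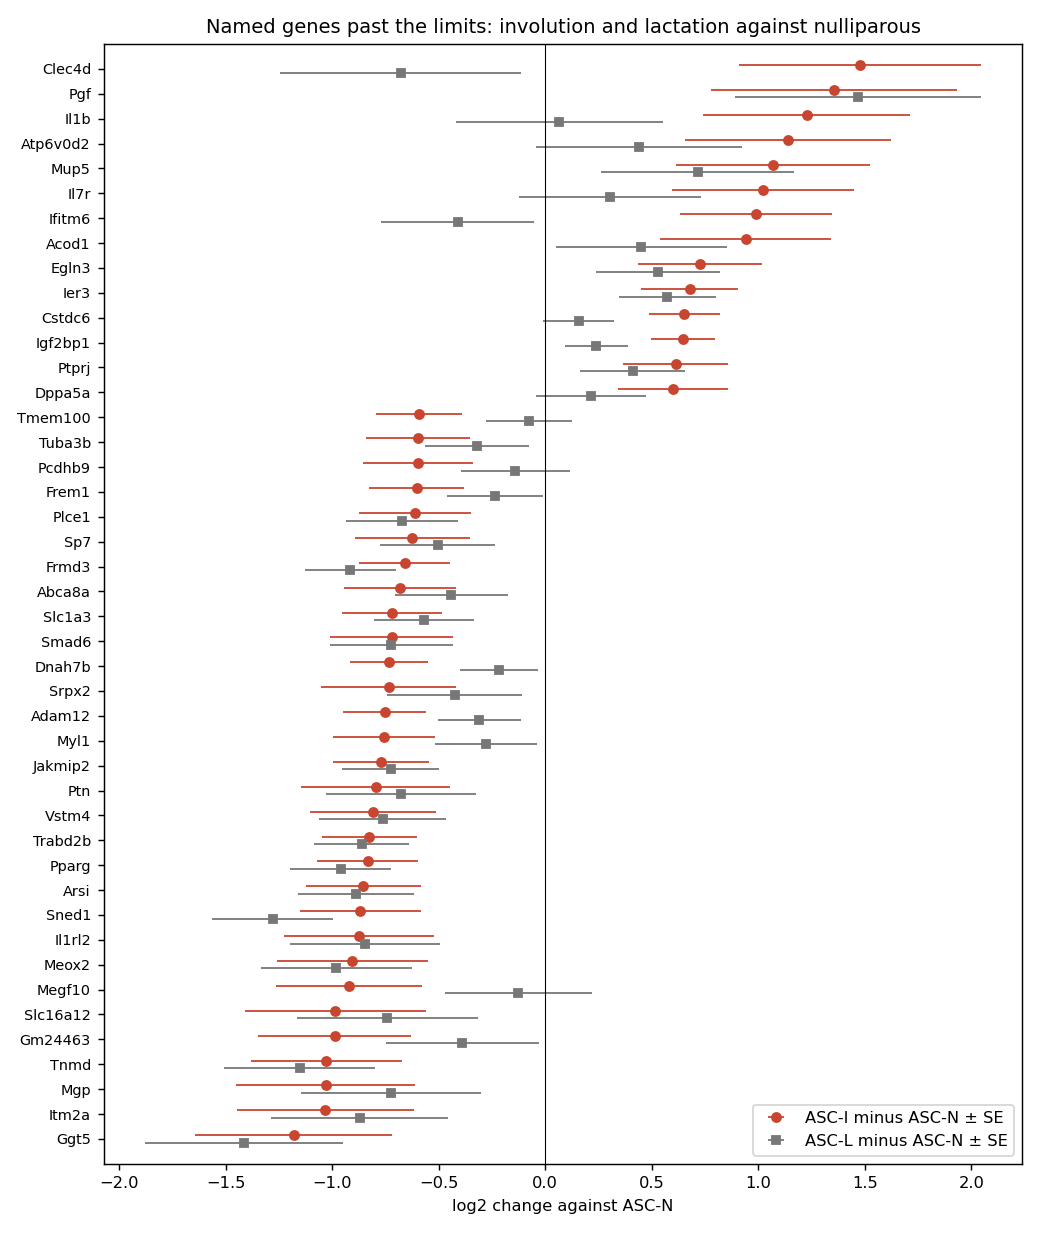
Change against ASC-Ns in log2 units (x axis, with SE bars) of 44 named genes past the limits (y axis), for ASC-Is (circles) and ASC-Ls (squares), the probe set annotated to Kcnma1 left out for its size. Circles and squares lie side by side for Pgf, Pparg, Trabd2b and Jakmip2, and on opposite sides of 0 for Clec4d and Ifitm6.

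Lists of other cell types had few called members. Endothelial genes had 6 of 13 higher with a median of -0.03 (0.35 with 12 higher without ASC-N1, and -0.25 with 2 higher without ASC-I2), and Pecam1 (CD31) read 7.99, 5.14 and 4.99 in ASC-Ns and 4.85, 7.22 and 5.49 in ASC-Is (-0.18 ± 1.00), high in 1 array of each stage. Luminal epithelial genes had 6 of 21 higher with a median of -0.10, which was 0.11 with 15 higher without ASC-I3, 0.04 with 13 higher without ASC-I1 and -0.34 with 4 higher without ASC-I2, and Epcam read 7.61, 7.03 and 4.43 against 4.51, 8.38 and 4.35. All 13 basal epithelial genes were higher, 0 called, with a median of 0.16 that became -0.24 without ASC-I2. Krt5 read 5.43, 9.48 and 5.57 in ASC-Is. Csn1s1, a casein of milk, read 3.70, 3.78 and 3.78 in ASC-Ns and 3.85, 5.69 and 3.80 in ASC-Is, again high in ASC-I2 alone. Neutrophil genes had 9 of 13 higher, B cell genes 7 of 9, mast cell genes 4 of 7, Schwann cell genes 5 of 6, lymphatic endothelial genes 2 of 5, and pericyte and smooth muscle genes 7 of 14, with 0 called in each. Among 24 signals of mammary involution, such as the Stat3 pathway and acute phase proteins, 10 were higher with 0 called, and Saa3 spread from 7.001 to 12.79 in ASC-Ns and from 8.06 to 13.15 in ASC-Is. Lif, a cytokine that activates Stat3 in the involuting gland, changed by 0.70 ± 0.80.

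**Figure D4:**
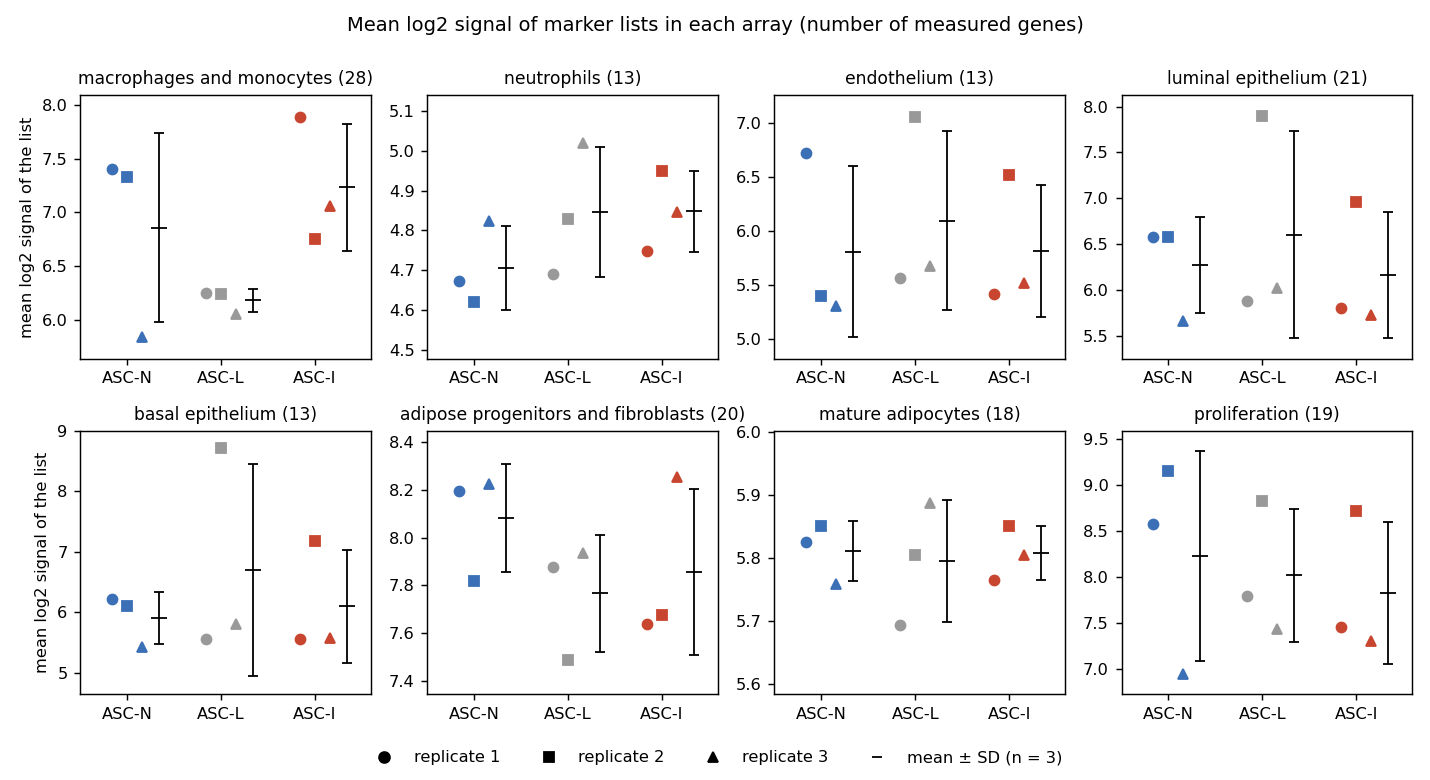
Mean log2 signal of 8 marker lists (y axis; number of measured genes in the panel titles) in each array by stage (x axis), with a point for each array and bars for the mean ± SD of 3 arrays. ASC-N3 is lowest among ASC-Ns and ASC-Is for macrophages (5.84) and proliferation (6.95), and ASC-I2 is highest for basal epithelium (7.17).

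Proliferation genes had the largest median change of the 43 lists, -0.40, with 18 of 19 genes lower and 0 called. Their mean log2 signal was 8.58, 9.15 and 6.95 in ASC-Ns and 7.45, 8.72 and 7.31 in ASC-Is, so that the arrays of a stage differed by more than the stages. The mitotic kinesin Kif11 changed by -0.79 ± 0.80 and the checkpoint kinase Bub1 by -0.64 ± 0.79. Without ASC-N2 the median was 0.08, and without ASC-N3 it was -1.01. Across the 43 lists, with the doubtful annotation to Kcnma1 left out, 17 had a called member and 26 had none, and 20 of the 718 measured genes were called, where 0.266% of all genes were. Several lists were drawn up with the called genes known, so nothing is read from that difference. The median of 32 lists changed sign without at least 1 of the 6 arrays, and that of 11 kept it, among them adipogenic transcription factors, adipose progenitors, glutathione enzymes and classical macrophage activation.

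**Figure D5:**
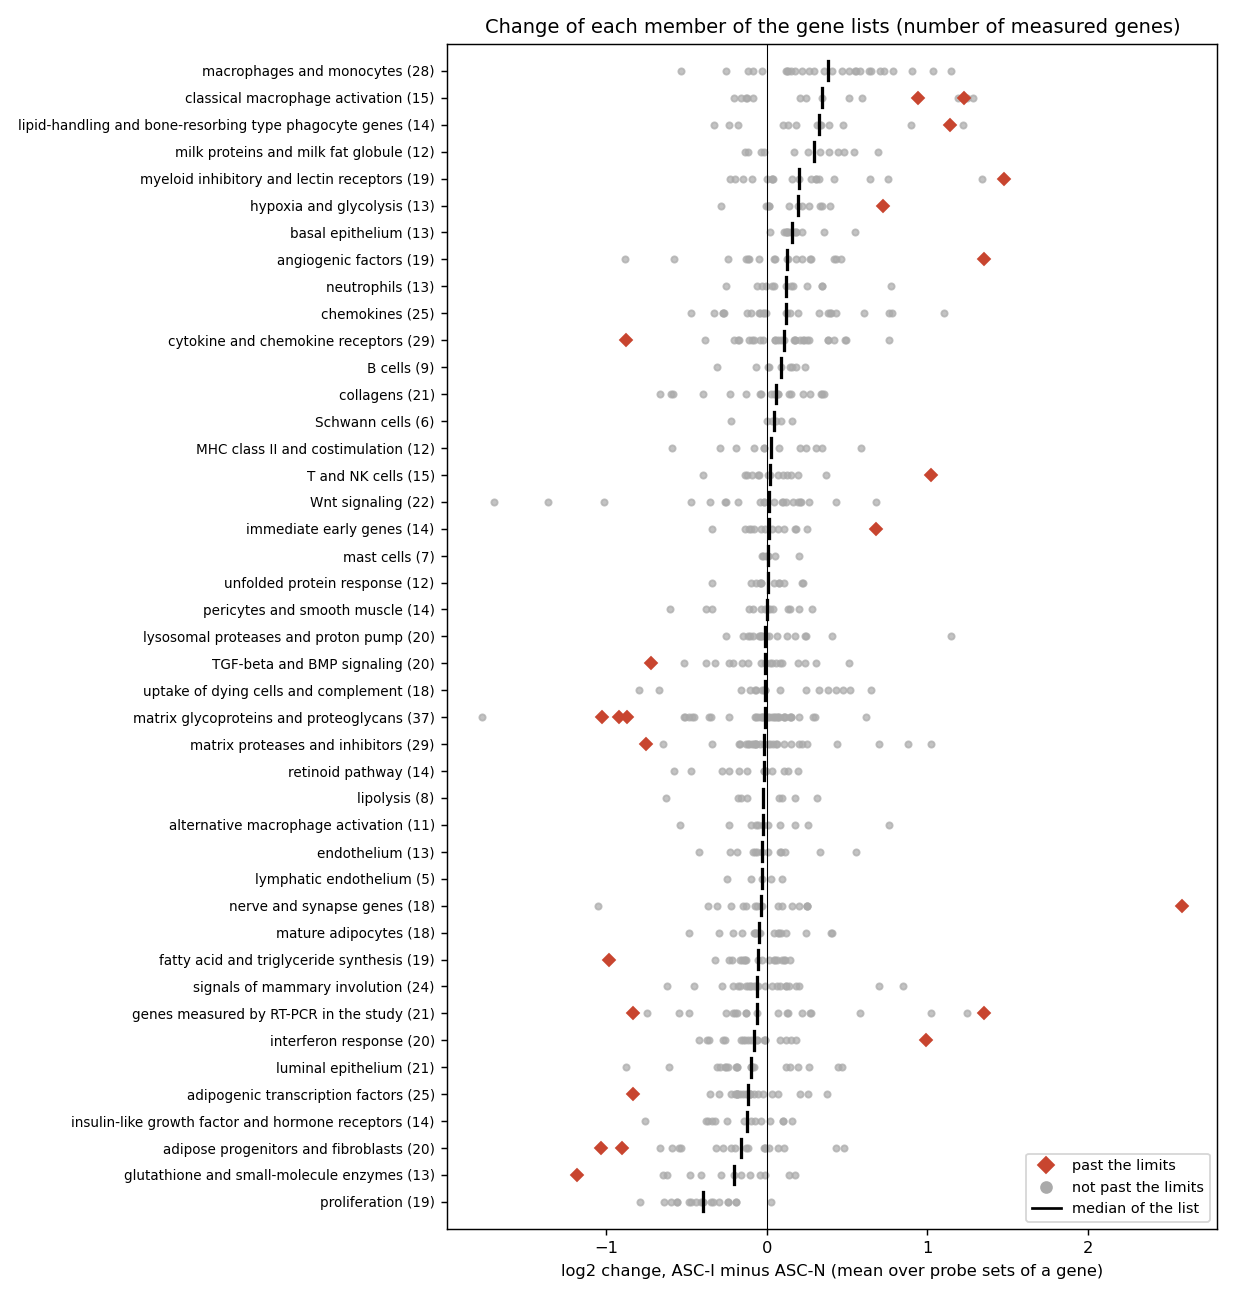
Difference of ASC-Is from ASC-Ns in log2 units (x axis) of each measured gene of the 43 lists (y axis, with the number of genes), averaged over its probe sets, with red diamonds for genes with a called probe set, gray points for the others and a black bar for the median of each list. Medians lie between -0.40 (proliferation) and 0.38 (macrophages and monocytes), and the diamond at 2.59 is the mean of the 2 probe sets annotated to Kcnma1.

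The remaining lists had few or no calls. Chemokines had 13 of 25 genes higher with 0 called, and Ccl6, a myeloid chemokine, read 10.10, 9.66 and 7.80 in ASC-Ns and 10.80, 9.76 and 10.31 in ASC-Is (1.11 ± 0.53). Ccl3, a macrophage inflammatory protein, changed by 0.78 ± 0.65. In the interferon response list 5 of 20 genes were higher with a median of -0.08, and only Ifitm6 rose. Without ASC-I2 16 of these 20 were higher with a median of 0.22, and without ASC-I3 4 were, with a median of -0.33. Genes for uptake of dying cells and complement had 8 of 18 higher with 0 called, and Gas6, the bridge between dying cells and their receptors, changed by -0.80 ± 0.82. MHC class II genes had 6 of 12 higher, lipolysis genes 4 of 8, insulin-like growth factor and hormone receptor genes 4 of 14, and unfolded protein response genes 6 of 12, each with 0 called. In the retinoid pathway 4 of 14 were higher with 0 called. Crabp1, a retinoic acid carrier, read 8.76, 7.94 and 8.96 in ASC-Ns and 7.45, 9.52 and 9.09 in ASC-Is (0.13 ± 0.56), and Aldh1a2, which makes retinoic acid, changed by -0.58 ± 0.48. Of the 21 measured genes that the study followed by RT-PCR, 10 were higher and 11 lower, Pgf rose and Pparg fell.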

How the data were processed

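Cells of ASC-Ns, ASC-Ls and ASC-Is were profiled with 9 Mouse Gene 1.0 ST arrays (Affymetrix), 3 per stage. Each deposited value is the log2 signal of a probe set, which the authors had normalized across arrays. The paper's methods state robust multi-array average and an RNeasy kit. The submitters' processing notes name GCRMA and limma, and the labels name Trizol, with no versions. GCRMA corrects low signals by probe sequence, which can change differences of dim probe sets. No further normalization was applied. The study's removal of genes of low variance was not evident in the deposited values, where 15 tested probe sets had an SD under 0.05. Whether other probe sets of the array had been left out of them is not known.

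Names came from the platform annotation. Probe sets with several symbols (1621) or no symbol (4965) were not tested. RefSeq (GRCm38.p6) held the Entrez identifier of 21671 tested probe sets and changed 0 symbols. In R 4.3.3, limma 3.58.1 (lmFit and eBayes, residual degrees of freedom 6, prior 2.97) fitted a mean per stage to all 9 arrays, with the contrasts ASC-I minus ASC-N, ASC-I minus ASC-L and ASC-L minus ASC-N. Calls needed an unadjusted p under 0.05 and a 1.5-fold change, the limits that the study's own tables meet. Benjamini-Hochberg adjustment ran over the 21762 probe sets. The fit was tested on simulated data. With 3 arrays per stage, their number limits the precision.

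The members, the 43 lists of 760 genes (718 measured) and the tests were chosen with earlier results of these data known, so lists are described by counts and medians without a test. Named were the 15 largest rises and falls among called probe sets whose stages did not overlap, up to 3 called genes per list or else up to 2 by size, and the genes of the study's RT-PCR. Itm2a, Ptn, Slc1a3, Sp7, Abca8a, Plce1, Frem1, Mup5, Tmem100, Frmd3, Dppa5a, Tuba3b, Pcdhb9, Cebpa and Cebpd were named after their values were seen. The fit was repeated with a trend on intensity and robust moderation, with the 6 arrays alone, array weights, cyclic loess, quantile normalization, 2 filters, all probe sets, averaged probe sets of a gene, a replicate block and arrays left out.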

Additional observations from a re-analysis of the deposited data

Results flagged for a closer look

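Between ASC-Is and ASC-Ls, 5 of the genes called against ASC-Ns also differed in the direct limma contrast, by -0.80 for Megf10, 1.40 for Ifitm6, 1.16 for Il1b, 2.16 for Clec4d and 5.82 for the probe set annotated to Kcnma1 (log2, ASC-I minus ASC-L), none past an adjusted p of 0.05. Among probe sets without a gene symbol, which the comparison does not use, 1 rose by 3.36 in ASC-Is against ASC-Ns. Its log2 signals were 4.62, 4.59 and 6.47 in ASC-Ns, 4.84, 4.82 and 5.11 in ASC-Ls and 10.54, 6.42 and 8.81 in ASC-Is, so that ASC-N3 lay above the other ASC-N arrays and ASC-I2 below the other ASC-I arrays, as in the probe set annotated to Kcnma1.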

How the results depend on the processing

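The number of probe sets called (59, of which 16 higher) was 221 with array weights (41 higher and 180 lower), 1038 without ASC-N3, ASC-L2 and ASC-I2 together (256 and 782, of which 1 passed an adjusted p of 0.05) and 356 in the ASC-N and ASC-I arrays without ASC-N3 (65 and 291), a setting added after seeing the data. Leaving out each array in turn gave 38 to 243. The other settings gave 46 to 83 and 0 at an adjusted p of 0.05. The causes were not tested. The replicate numbers are shared between stages, but deviations of same-numbered ASC-I and ASC-N arrays correlated by 0.0582, 0.435 and 0.501, of which the first is under 0.1, and replicates 2 and 3 but not 1 matched their own number best, so the numbers were not taken to pair the arrays and whether they mark a shared day is not known. With the replicate number as a block 103 probe sets were called (32 higher and 71 lower). Of 45 called genes named, 45 kept their sign over the settings that tested them, up to 21, and 4 (Pparg, Trabd2b, Jakmip2 and the probe set annotated to Kcnma1) were called in every setting that tested them. These genes were chosen by their change in the main fit, and every setting reuses all or part of its arrays. A kept sign was thus largely fixed beforehand and is no test. Of 935 values of a gene in a setting, 202 lost the call.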

Other observations

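Probe sets outside the comparison gave further calls by the same limits. Of 4965 probe sets without a symbol 6 were higher in ASC-Is and 11 lower, and of 1621 with several symbols 2 were higher and 1 lower. The next largest rise among those without a symbol was 2.04, with log2 signals of 4.25, 4.31 and 4.84 in ASC-Ns and 7.01, 4.77 and 7.73 in ASC-Is.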
